A study of Mus musculus with 4 samples.

Results

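The genes of fetal Leydig steroidogenesis were followed through the 4 sorted cell fractions of the fetal mouse gonad. The members were Scarb1, Star, Cyp11a1, Hsd3b1, Cyp17a1, Hsd17b3, Insl3 and Lhcgr, chosen by name, and all 8 were found by symbol among the 20299 genes measured. RNA had been sequenced with strand kept from male somatic cells, female somatic cells, male germ cells and female germ cells of gonads at 15.5 days post coitum (dpc), with 1 library per group. All 4 groups came from fetuses of CF1 females, an outbred stock, mated with TgOG2 males, whose transgene places enhanced green fluorescent protein (GFP) under the Oct4 promoter, so every group carries the same cross and reporter. Germ cells were the GFP-positive sort. Somatic cells were the GFP-negative sort, which holds every gonadal cell that lacks the reporter and was not purified for Leydig cells. The sources used here do not state how many fetuses were pooled for a library.

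Leydig cells lie between the cords of the testis and make the androgens that masculinise the fetus. Steroid synthesis starts with cholesterol, which enters the cell from lipoproteins through Scarb1, is moved into mitochondria with the help of Star, and is cut there to pregnenolone by Cyp11a1. Hsd3b1 and Cyp17a1 then lead to androstenedione, and Hsd17b3 makes testosterone from it. In the fetal mouse testis that last step is known to take place in Sertoli cells, the supporting cells of the cords. Insl3 is a peptide hormone of Leydig cells that acts on testis descent, and Lhcgr is the receptor for luteinising hormone. Fetal ovaries of the mouse are known to make little steroid before birth.

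Levels are given as scaled signal per 1000000 (SPM), the deposited gene signal divided by the library's adjusted total. The libraries held an estimated 17.5 to 24.9 M fragments (M, 1000000 fragments), and a floor of 3 fragments was worth 0.113 to 0.180 SPM. The fractions carried their own marks. The 8 germ cell genes of the marker list summed to 32.5 SPM in male somatic cells, 11.9 SPM in female somatic cells, 4985 SPM in male germ cells and 4198 SPM in female germ cells. The 12 Sertoli genes summed to 880 SPM in male somatic cells, against 63.5 SPM in female somatic cells, and the 8 pregranulosa genes to 119.7 SPM in male somatic cells, against 1296.5 SPM in female somatic cells.

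The 8 genes together held 1045 SPM in male somatic cells, 157 SPM in female somatic cells, 108 SPM in male germ cells and 34.6 SPM in female germ cells. Every member had its highest level in male somatic cells. The enzyme genes Cyp11a1, Cyp17a1 and Hsd17b3 and the hormone gene Insl3 were 60.5 to 1100 times as high in male as in female somatic cells, while Hsd3b1, Star, Scarb1 and Lhcgr stood at 2.38 to 3.38 times the female level. In bulk libraries, fewer cells of a type cannot be told apart from less RNA per cell.

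**Figure D1:**
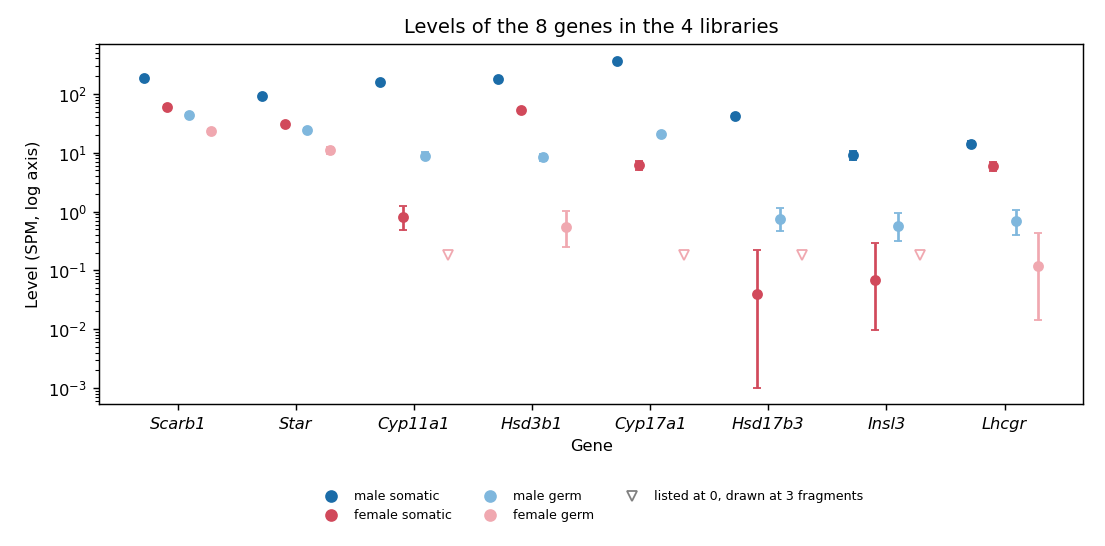
Level of each gene (SPM, log axis) in male somatic, female somatic, male germ and female germ cells, 1 library each; bars are exact 95% counting intervals and open triangles mark genes listed at 0, drawn at the floor of 3 fragments. The male somatic point is the highest for all 8 genes, and Cyp11a1, Cyp17a1, Hsd17b3 and Insl3 are listed at 0 in female germ cells.

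Cholesterol delivery came first in the pathway and showed the flattest profile over the libraries. Scarb1, the receptor that takes up cholesterol from high-density lipoprotein (mm9 chromosome 5, 125757456 to 125821464, minus strand), had 183 SPM in male somatic cells, 60.6 SPM in female somatic cells, 44.2 SPM in male germ cells and 23.0 SPM in female germ cells. Star, the steroidogenic acute regulatory protein (chromosome 8, 26918984 to 26926454, plus strand), had 92.8 SPM in male somatic cells, 30.4 SPM in female somatic cells, 24.3 SPM in male germ cells and 10.9 SPM in female germ cells. Both were thus detected in every fraction, in the same order of fractions. The male somatic library held 58.9% of the summed Scarb1 level over the 4 libraries and 58.6% of that of Star.

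Cyp11a1, the side-chain cleavage enzyme that commits cholesterol to steroids (chromosome 9, 57862823 to 57874830, plus strand), had 157 SPM in male somatic cells, 0.817 SPM in female somatic cells and 8.89 SPM in male germ cells, but no signal in the female germ library. The female somatic value rests on 20 estimated fragments. An entry for the cell cycle inhibitor Cdkn2d spans Cyp11a1 on the opposite strand (21092907 to 123839607) and had 30.2 SPM in male somatic cells, 23.0 SPM in female somatic cells, 21.1 SPM in male germ cells and 63.5 SPM in female germ cells. The listed span of that entry is far too long for a single gene, and where in it the signal lies was not checked. Any part of that signal in the Cyp11a1 level was not tested. Hsd3b1, which turns the delta-5 steroids into delta-4 steroids (chromosome 3, 98656119 to 98663717, minus strand), had 180 SPM in male somatic cells, 53.2 SPM in female somatic cells, 8.42 SPM in male germ cells and 0.552 SPM in female germ cells. These neighbouring steps of the pathway were close to each other in the male somatic library and far apart in the female one. Levels per kb use the length listed for each gene, 1783 bases for Cyp11a1, which is shorter than its span. On that scale Hsd3b1 stood at 1.10 times the level of Cyp11a1 in male somatic cells, 62.4 times in female somatic cells and 0.910 times in male germ cells.

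Cyp17a1, the 17alpha-hydroxylase and lyase (chromosome 19, 46741654 to 46747490, minus strand), had 367 SPM in male somatic cells, 6.06 SPM in female somatic cells and 20.6 SPM in male germ cells, while female germ cells had 0. Its female somatic level rests on 152 fragments and lies well over the floor. Hsd17b3, the testosterone-forming dehydrogenase (chromosome 13, 64159581 to 64190509, minus strand), had 42.8 SPM in male somatic cells, 0.0389 SPM in female somatic cells and 0.750 SPM in male germ cells, and 0 in female germ cells. Only 1 fragment lay behind the female somatic value, which is under the floor.

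Insl3, the descent hormone (chromosome 8, 74213150 to 74214476, plus strand), had 9.03 SPM in male somatic cells, 0.0681 SPM in female somatic cells and 0.567 SPM in male germ cells, and 0 in female germ cells. The 2 fragments of the female somatic library are under the floor. The Insl3 level is uncertain, because the gene lies wholly inside the listed span of the kinase gene Jak3 on the same strand, and 305 of 524 windows of 100 bases in its GRCm38 transcript (58.2%) also occur in Jak3 transcripts. Jak3 itself had 15.7 SPM in male somatic cells, 4.29 SPM in female somatic cells, 2.19 SPM in male germ cells and 4.69 SPM in female germ cells. No other member shared a window of 100 bases with another gene. Lhcgr, the luteinising hormone receptor (chromosome 17, 89140888 to 89191316, minus strand), had 14.0 SPM in male somatic cells, 5.89 SPM in female somatic cells, 0.677 SPM in male germ cells and 0.118 SPM in female germ cells, the last from 2 fragments. Its female somatic level rests on 147 fragments. Divided by the listed length that level was 2.30 SPM per kb, where Cyp17a1 had 3.28 SPM per kb in the same library.

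Per kb, the order of the members in male somatic cells was Cyp17a1, Hsd3b1, Cyp11a1, Scarb1, Hsd17b3, Star, Insl3 and Lhcgr. Cyp17a1 ranked 212 among the 20299 genes by level per kb, Hsd3b1 545, Cyp11a1 629 and Scarb1 1111, while Lhcgr ranked 9137. With 1 library per group this order has no replicate check. The make-up of the summed level differed between the libraries. Cyp17a1 supplied 38.2% of the members' summed level per kb in male somatic cells, against 5.30% in female somatic cells. Hsd3b1 supplied 18.6% in male somatic cells, against 46.3% in female somatic cells, and Scarb1 supplied 11.4% in male somatic cells, against 31.5% in female somatic cells. In female germ cells Scarb1 and Star supplied 70.8% and 25.96% of a sum of 10.5 SPM per kb, where male somatic cells had 519 SPM per kb.

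**Figure D2:**
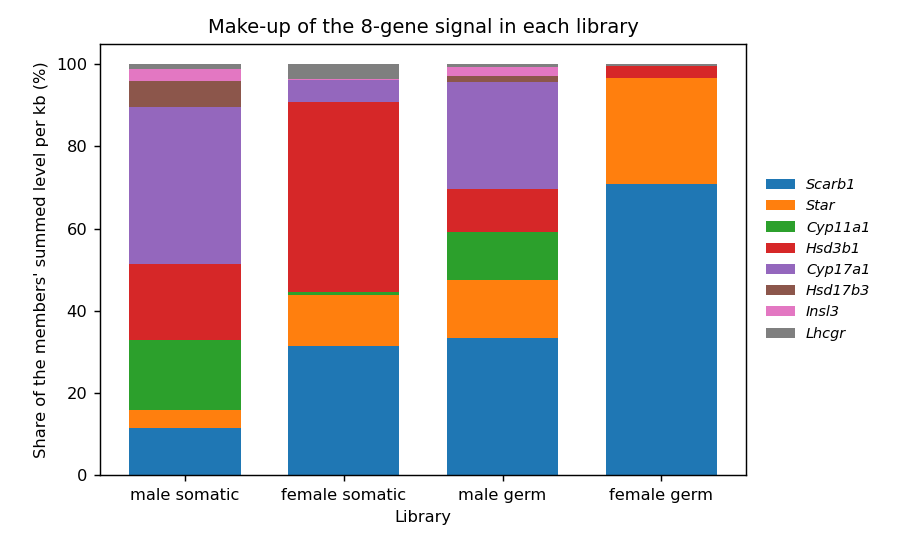
Share of each gene in the members' summed level per kb (%) in the 4 libraries. Cyp17a1 is the largest share in male somatic cells (38.2%), Hsd3b1 in female somatic cells (46.3%), and Scarb1 in male germ cells (33.3%) and female germ cells (70.8%).

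The sex comparison of the somatic fraction asked how far each gene of the pathway belonged to the testis side. By a rule of at least 4-fold with at least 5 SPM in the higher library, 4 of the 8 members were higher in male somatic cells, where 3.0% of all genes that reached 5 SPM were. The 8 members had a median log2 ratio of 2.91 on the log2(SPM + 0.5) scale, which understates low genes, against 0.01 for all genes at 1 SPM or more. Cyp11a1 was 192-fold higher (95% counting interval 127 to 322), Cyp17a1 60.5-fold (51.4 to 71.4), Insl3 133-fold (30.7 to 940) and Hsd17b3 1100-fold (192 to 42422). The female library held 2 fragments of Insl3 and 1 of Hsd17b3, and the intervals of Hsd17b3, Cyp11a1 and Insl3 overlap each other. The other members formed a second group with no ratio between 3.38 and 60.5. Hsd3b1 was 3.38-fold higher in male somatic cells (3.17 to 3.61), Star 3.06-fold (2.80 to 3.34), Scarb1 3.03-fold (2.85 to 3.22) and Lhcgr 2.38-fold (1.94 to 2.96). Neighbours in this second group overlap in their intervals, and the interval of Hsd3b1 lies above that of Lhcgr. Each ratio sets 1 library against 1, so no p-value is given and the intervals cover counting error only.

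**Figure D3:**
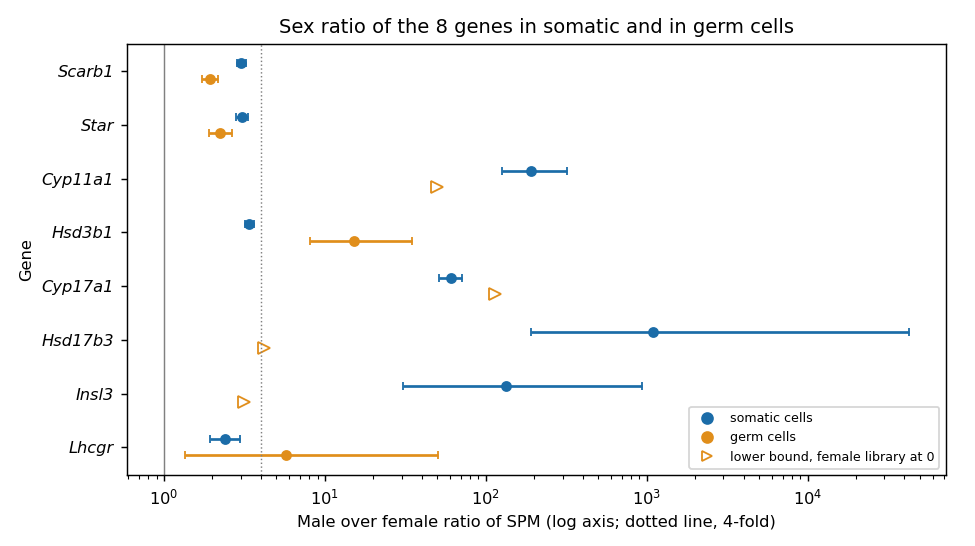
Male over female ratio of SPM (log axis) for each gene in somatic cells and in germ cells, with exact 95% counting intervals. Open triangles set the male level against the floor of 3 fragments where the female library is listed at 0, without counting error. The solid line marks 1 and the dotted line 4-fold. In somatic cells Cyp11a1, Cyp17a1, Hsd17b3 and Insl3 lie at 60.5-fold or more and the other genes at 3.38-fold or less.

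Markers of other cells moved with this comparison. Of the 12 Sertoli genes, 8 were higher in male somatic cells by the same rule and 1, Nr0b1, was lower. Amh, the Sertoli hormone that removes the female ducts, had 272.9 SPM in male somatic cells, against 0.380 SPM in female somatic cells. None of the 9 stroma genes passed the rule, yet all 9 were 2.01 to 3.68 times as high in male somatic cells, with sums of 16681.5 SPM in male and 6205 SPM in female somatic cells and none listed at 0. The part of Sertoli or stromal content in the members' ratios was not tested. Genes of the adrenal cortex, a gland that forms beside the gonad and shares these enzymes, were also read. The zone-specific enzyme Cyp11b1 had 0.699 SPM in male somatic cells and was listed at 0 in female somatic cells, Cyp11b2 was listed at 0 in both, and Cyp21a1 had 1.32 SPM in male somatic cells and 0.253 SPM in female somatic cells. The 6 adrenal genes summed to 21.8 SPM in male somatic cells and 13.3 SPM in female somatic cells, most of the male sum being Akr1b7 at 16.97 SPM. Mc2r, the receptor for adrenocorticotropic hormone, had 0.236 SPM in male somatic cells and 0.496 SPM in female somatic cells. Mrap, the last gene of this list, reached 5 SPM in female but not in male somatic cells. The part of adrenal cells in the members' levels was not tested.

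The promoter windows of a pair of genes with large somatic sex ratios, Cyp11a1 and Hsd17b3, and of a pair with small ones, Hsd3b1 and Lhcgr, are shown so that their sequences can be set beside the levels above. RefSeq windows (GRCm38.p6, a later build than the mm9 of the gene positions) run from 250 bases before to 50 after the annotated start and were found for 5 of the 8 members, in 6 windows, the others being Star, Cyp17a1 and Scarb1. They were searched on both strands for CAAGGTCA and CAAGGCCA, sites bound by the steroidogenic factor Nr5a1, for AGATAA, bound by GATA factors, for TATAAA, and for AGGTCA, the core that CAAGGTCA contains and that was added after the other results were seen. Capitals mark the matches. RefSeq gives Cyp11a1 a pair of windows, and the one nearer to a GENCODE start (281 bases away, against 16647) is shown; the other, chr9:57997774-57998073, held no match. The window shown for Cyp11a1 is chr9:58014702-58015001 on the plus strand, with AGGTCA starting 28 bases before the start. That of Hsd17b3 is chr13:64089152-64089451 on the minus strand, with no match. That of Hsd3b1 is chr3:98859745-98860044 on the minus strand, with AGATAA on the opposite strand of the window, 134 bases before the start. That of Lhcgr is chr17:88791965-88792264 on the minus strand, with AGGTCA starting 122 bases before the start.
Cyp11a1: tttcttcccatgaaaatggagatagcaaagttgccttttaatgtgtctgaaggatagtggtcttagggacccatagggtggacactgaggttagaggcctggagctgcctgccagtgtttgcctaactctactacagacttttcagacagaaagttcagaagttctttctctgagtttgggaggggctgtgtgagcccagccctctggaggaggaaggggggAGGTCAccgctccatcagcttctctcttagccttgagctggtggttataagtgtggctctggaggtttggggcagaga
Hsd17b3: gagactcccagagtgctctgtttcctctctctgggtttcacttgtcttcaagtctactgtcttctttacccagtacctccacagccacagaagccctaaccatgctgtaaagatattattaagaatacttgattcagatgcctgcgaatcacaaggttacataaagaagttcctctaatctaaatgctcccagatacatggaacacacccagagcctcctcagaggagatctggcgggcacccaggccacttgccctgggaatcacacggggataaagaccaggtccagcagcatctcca
Hsd3b1: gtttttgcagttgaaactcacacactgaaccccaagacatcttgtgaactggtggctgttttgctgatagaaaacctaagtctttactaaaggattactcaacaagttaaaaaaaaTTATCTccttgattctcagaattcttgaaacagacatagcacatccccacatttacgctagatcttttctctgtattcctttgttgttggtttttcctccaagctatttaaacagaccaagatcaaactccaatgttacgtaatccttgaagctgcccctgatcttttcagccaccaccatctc
Lhcgr: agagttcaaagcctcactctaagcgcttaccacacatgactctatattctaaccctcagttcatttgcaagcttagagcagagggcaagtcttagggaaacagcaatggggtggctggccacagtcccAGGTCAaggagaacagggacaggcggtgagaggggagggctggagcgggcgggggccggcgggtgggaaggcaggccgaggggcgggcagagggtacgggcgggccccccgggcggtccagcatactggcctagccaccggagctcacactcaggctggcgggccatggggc

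Of the 6 windows, none held CAAGGTCA, CAAGGCCA or TATAAA, 1 held AGATAA and 2 held AGGTCA. Among all 32851 windows of this length in the RefSeq table, 1.56% held CAAGGTCA, 2.40% CAAGGCCA, 11.2% AGATAA, 13.6% TATAAA and 16.3% AGGTCA. A match is a run of letters and not a bound site. The windows with AGGTCA belong to 1 gene with a large and 1 with a small somatic sex ratio.

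Within the testis, male somatic cells were set against male germ cells, which shows how far the members belonged to the GFP-negative fraction. By the 4-fold rule 7 of the 8 members were higher in male somatic cells, against a background of 18.4% of genes, and Star missed it at 3.81-fold (3.48 to 4.19). Hsd17b3 was 57.1-fold higher in male somatic cells (36.7 to 94.0), Hsd3b1 21.3-fold (18.6 to 24.6), Lhcgr 20.7-fold (12.9 to 35.7), Cyp17a1 17.8-fold (16.3 to 19.5), Cyp11a1 17.6-fold (15.4 to 20.2) and Insl3 15.9-fold (9.40 to 29.3). Scarb1 passed narrowly at 4.15-fold (3.87 to 4.44) and was under 4-fold with each of 3 other scalings of the libraries, which leaves 6 of 8. As shares, the male germ library held 5.67% of the male somatic level of Cyp11a1, 5.61% of Cyp17a1, 4.69% of Hsd3b1, 4.82% of Lhcgr and 6.27% of Insl3. These 5 members lay close together, and the interval of each overlapped that of the next. Hsd17b3 was lower at 1.75% (1.06 to 2.73), and Star and Scarb1 higher at 26.2% and 24.1%.

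Male germ shares of other somatic gene lists had medians on both sides of that of the members. Over genes at 5 SPM or more in male somatic cells, the median male germ share was 5.64% for the 8 members, 5.005% for the Sertoli list, 4.04% for 4 other genes reported in fetal Leydig cells, 1.28% for the stroma list, 2.52% for the red blood cell list, 9.71% for the mesonephric duct list, 14.1% for the leukocyte list, 19.8% for the endothelial list and 59.7% for the pregranulosa list. The mesonephric duct median rests on 3 genes, and the leukocyte and pregranulosa medians on 4 genes each. The Sertoli list summed to 880 SPM in male somatic cells and 73.6 SPM in male germ cells, with none of its 12 genes listed at 0 in either library. The stroma list summed to 16681.5 SPM in male somatic cells and 244 SPM in male germ cells, again with no gene at 0. Whether the member signal in the male germ library came from germ cells or from somatic RNA in the sort was not tested.

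**Figure D4:**
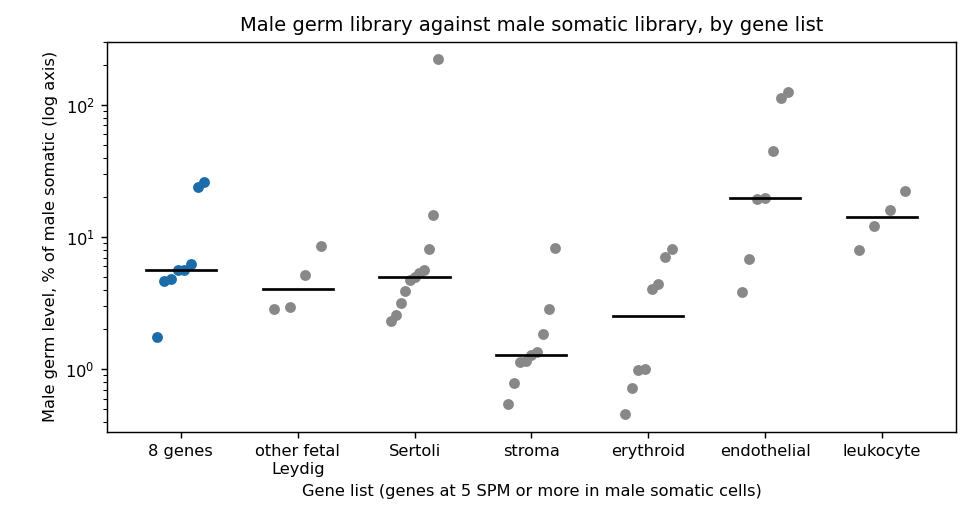
Male germ level as a percentage of the male somatic level (log axis) for the 8 genes and for gene lists of other somatic cells, genes at 5 SPM or more in male somatic cells; each point is a gene and the line is the list's median. The 8 genes have a median of 5.64%, with Hsd17b3 lowest at 1.75% and Scarb1 and Star highest at 24.1% and 26.2%.

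Between the germ libraries, 3 of the 8 members were higher in male germ cells by the rule, where 14.0% of all genes at 5 SPM or more were. Against the 3-fragment floor of the female germ library, Cyp17a1 was 115-fold higher (lower limit 93.1) and Cyp11a1 49.5-fold (lower limit 40.0). Hsd3b1 was 15.3-fold higher (8.08 to 34.6), with 224 fragments in male germ cells and 9 in female germ cells. Star was 2.23-fold higher in male germ cells (1.89 to 2.65) and Scarb1 1.92-fold (1.71 to 2.16). The other 3 were under 5 SPM in both. Against the same floor Hsd17b3 was 4.18-fold higher in male germ cells (lower limit 3.10) and Insl3 3.16-fold (lower limit 2.25). Lhcgr was 5.72-fold higher with an interval of 1.35 to 50.2. Other somatic lists differed in direction. The Sertoli list summed to 73.6 SPM in male germ cells and 20.1 SPM in female germ cells, the stroma list to 244 SPM in male germ cells and 62.2 SPM in female germ cells. The pregranulosa list summed to 28.4 SPM in male germ cells and 37.4 SPM in female germ cells, and the leukocyte list to 12.1 SPM in male germ cells and 13.8 SPM in female germ cells. The part of these lists in the members' ratios was not tested.

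In the ovary, 3 of the 8 members were higher in female somatic than in female germ cells by the rule, against a background of 23.6%. Hsd3b1 was 96.3-fold higher in female somatic cells (51.9 to 217) and Lhcgr 49.8-fold (13.4 to 409). Cyp17a1 was 33.8-fold over the floor of the female germ library (lower limit 27.2). Star at 2.79-fold (2.37 to 3.30) and Scarb1 at 2.63-fold (2.35 to 2.95) were again the flattest. Cyp11a1 stayed under 5 SPM, 4.56-fold over that floor (lower limit 3.30), and Insl3 and Hsd17b3 did not exceed the floor in either ovarian library.

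Tests over libraries were possible only where both sexes or both cell types served as a pair. limma with Benjamini-Hochberg adjustment on log2(SPM + 0.5) covered 14148 genes and 6 members, since Hsd17b3 and Insl3 reached 1 SPM in 1 library only and did not pass the filter. Nothing in the labels ties the libraries to separate animals, so these p-values do not measure variation among animals. The 2 libraries of a sex are 1 of germ and 1 of somatic cells, not replicates. The fit of male over female left 1 residual degree of freedom, beside 25.7 prior degrees of freedom that limma borrowed from all genes. Its p-values thus rest mainly on a spread taken from other genes. For male over female with cell type as a term, 2 of the 6 tested members passed, against 0.134% of genes called higher. Cyp11a1 met the filter through the 2 male libraries alone, the side where it was high, so this count depends on the filter. Cyp17a1 rose by 5.60 ± 0.93 (log2, SE; n = 2 libraries per sex, limma adjusted p = 0.00499) and Cyp11a1 by 5.57 ± 1.006 (limma adjusted p = 0.0128). Both calls were lost with plain library totals (limma adjusted p = 0.363 for Cyp17a1 and 0.681 for Cyp11a1), with upper-quartile scaling and without the cell type term, and that of Cyp11a1 also with no filter (limma adjusted p = 0.175). Over the 7 alternatives the adjusted p ran from 5.47e-07 to 0.9998 for Cyp17a1 and from 1.45e-05 to 0.9998 for Cyp11a1. Hsd3b1 had 2.42 ± 0.89 (limma adjusted p = 0.519), Star 1.36 ± 0.78, Scarb1 1.26 ± 0.68 and Lhcgr 1.06 ± 0.92, none past the threshold, and all 6 had their higher level in the male library of each cell type.

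For somatic over germ cells, with 5.56% of genes called higher, none of the 6 tested members passed in limma. An unadjusted p under 0.05 was reached by 2 of the 6, and by 4443 of all 14148 genes tested, a similar share. Lhcgr had a log2 difference of 3.498 ± 0.78 (SE over 2 libraries of each cell type, limma adjusted p = 0.0572) and Hsd3b1 one of 5.004 ± 1.24 (limma adjusted p = 0.0686). Lhcgr met the filter through the 2 somatic libraries alone, the side where it was high, so its p-values here depend on the filter. With no filter it had a limma adjusted p of 0.107. Cyp11a1 had 2.73 ± 2.60 and Cyp17a1 3.92 ± 2.54, with their male and female somatic levels far apart. With sex as a term Hsd3b1 (limma adjusted p = 0.00022), Cyp17a1 (0.00342) and Lhcgr (0.00734) passed. In that fit 1955 of the 14148 genes were called higher. It left 1 residual degree of freedom beside 25.7 prior ones, so its p-values too rest mainly on a spread taken from other genes. Without the male somatic library the Cyp11a1 difference turned to -0.72.

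The rest of the pathway was read through lists of its other genes. Over all genes, 3.0% were higher and 3.17% lower in male somatic cells by the rule, so a short list is likely to hold few such genes. Of 14 cholesterol supply genes, 0 were higher or lower, which is near that background, and the median log2 ratio was -0.02. Soat1, which stores cholesterol as esters, had 178 SPM in male somatic cells and 672 SPM in female somatic cells. Vdac1, a channel of the outer mitochondrial membrane, had 380 SPM in male and 453 SPM in female somatic cells. Among 8 electron donors and partners of the steroid P450 enzymes, again none passed, with a median of 0.04. Fdx1, the ferredoxin that feeds electrons to Cyp11a1, had 71.0 SPM in male somatic cells and 30.8 SPM in female somatic cells, while Por, the reductase that serves Cyp17a1, had 85.9 SPM in male and 86.0 SPM in female somatic cells. Pgrmc1, a haem-binding membrane protein, had 313 SPM in male and 297 SPM in female somatic cells.

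Of 23 other steroid-converting enzymes measured, 12 reached 5 SPM in either somatic library. By the rule 2 of these were higher and 2 lower in male somatic cells, and the list's median log2 ratio was -0.25. Hsd17b1, a dehydrogenase that reduces steroids at carbon 17, had 106 SPM in male somatic cells and 1.02 SPM in female somatic cells, a ratio of 104 (69.6 to 157). Hsd11b2, which inactivates glucocorticoids, had 46.3 SPM in male somatic cells and 10.5 SPM in female somatic cells, a ratio of 4.41 (3.83 to 5.09). Akr1c14, a 3alpha-hydroxysteroid dehydrogenase, had 5.68 SPM in male and 93.2 SPM in female somatic cells. Hsd17b2, which oxidises androgens and oestrogens, had 0.118 SPM in male somatic cells, from 2 fragments, and 6.52 SPM in female somatic cells. Hsd17b4, a peroxisomal enzyme, had 117 SPM in male and 111 SPM in female somatic cells, and Cyp19a1, the aromatase, had no more than 0.0195 SPM in either. The relatives of Hsd3b1 were low, Hsd3b4 with 2.98 SPM in male somatic cells and Hsd3b2, Hsd3b3, Hsd3b5 and Hsd3b6 under 1 SPM in both somatic libraries. Of the Hsd3b1 transcript, 90 of 1806 windows of 50 bases (4.98%) occurred in other genes, Hsd3b2, Hsd3b3, Hsd3b5 and Hsd3b6 among them, and none of its windows of 100 bases did.

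Regulators of the Leydig lineage split between factors present in both sexes and a hedgehog group on the male side. Of 32 genes, 30 of them at 5 SPM or more in either somatic library, 4 were higher in male somatic cells and 1 was lower. The median log2 ratio was 0.31. Dhh, the desert hedgehog ligand that Sertoli cells send to Leydig precursors, had 96.9 SPM in male somatic cells and 0.253 SPM in female somatic cells. Its receptor Ptch1 had 223 SPM in male and 22.7 SPM in female somatic cells, the effector Gli1 62.7 SPM in male and 3.22 SPM in female somatic cells, and the inhibitor Hhip 69.3 SPM in male and 1.897 SPM in female somatic cells. All 4 genes that passed as higher were these. Nr0b1, a repressor of Nr5a1, passed as lower with 3.13 SPM in male and 15.5 SPM in female somatic cells. Nr5a1, the steroidogenic factor that binds the CAAGGTCA sites named above, had 321 SPM in male and 278 SPM in female somatic cells, and Gata4 had 221 SPM in male and 277 SPM in female somatic cells. Pdgfra, a receptor of the interstitium, had 2459 SPM in male and 775 SPM in female somatic cells, and is also on the stroma list.

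Among 22 hormone receptors and signalling parts, 16 reached 5 SPM in either somatic library. Of these 1 was higher and 1 lower in male somatic cells, beside a background of 3.0% and 3.17%. The list's median log2 ratio was 0.70. Crhr1, a receptor for corticotropin-releasing hormone, had 7.33 SPM in male somatic cells and 0.0778 SPM in female somatic cells. Amhr2, the receptor for Amh, had 104 SPM in male and 557 SPM in female somatic cells. Gnas, the stimulatory G protein through which Lhcgr signals, had 1408 SPM in male and 867 SPM in female somatic cells. Rxfp2, the receptor for Insl3, had 2.15 SPM in male somatic cells, 1.11 SPM in female somatic cells, 10.5 SPM in male germ cells and 0.108 SPM in female germ cells, so hormone and receptor had their highest levels in different fractions of the testis. Of 4 other genes reported in fetal Leydig cells, Ren1, the renin gene, had 69.4 SPM in male somatic cells and 0.185 SPM in female somatic cells, and Dlk1 had 277 SPM in male and 60.9 SPM in female somatic cells, both higher by the rule. Thbs2 was lower, with 113 SPM in male and 571 SPM in female somatic cells.

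**Figure D5:**
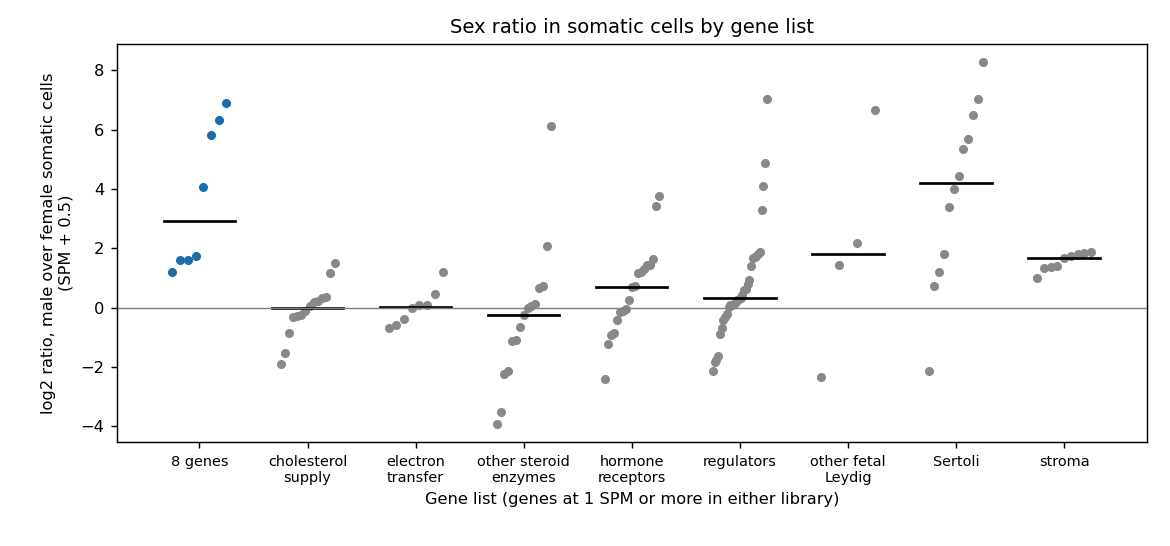
Log2 ratio of male over female somatic cells (SPM + 0.5) for the 8 genes and for lists of pathway and cell type genes, genes at 1 SPM or more in either library; each point is a gene and the line is the list's median. The 8 genes have a median of 2.91, the cholesterol supply list -0.02, the electron transfer list 0.04 and the Sertoli list 4.21.

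Genes with profiles like the members were ranked over the 4 libraries by Euclidean distance between centred log2(SPM + 0.5) values, among 10386 genes at 20 SPM or more in their highest library. The 10 nearest to the mean of the members were Gli1, Figf, Pgf, Trim47, Otof, Cbln4, Efna5, Plcxd3, Tmem184a and Sytl2, at distances of 0.41 to 0.83. The members themselves lay 1.47 (Insl3) to 2.89 (Cyp17a1) from their own mean, so no single profile stood for the set. Figf had 37.9 SPM in male somatic cells, 2.96 SPM in female somatic cells, 4.35 SPM in male germ cells and 0.207 SPM in female germ cells. For single members, Cyp11a1 was nearest to the Sertoli gene Cst9 (0.50), as was Cyp17a1 (1.22), Hsd17b3 to Kcns2 (0.42), Insl3 to Nt5e (0.47), Hsd3b1 to Akap2 (0.17), Lhcgr to Pkia (0.15), Star to Cacna2d1 (0.26) and Scarb1 to Aff3 (0.27). With 4 libraries these distances describe the libraries and carry no test.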

How the data were processed

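The deposited values, which the file headers call counts, are whole numbers per gene, treated here as scaled signal because low values cluster at a spacing of 4.105 to 6.105, taken as 1 fragment (43.1% to 54.3% of low values lay on it, against 15.0% to 23.3% by chance). Fragment numbers and intervals rest on that reading. CASAVA 1.9, TopHat 1.2.0, edgeR and mm9 are named in the submitters' processing notes. The sources used here state neither the annotation nor whether counting used strand. After 74 repeated rows were removed, signal was divided by totals adjusted by trimmed mean of M values (factors 0.945 to 1.07). Exact conditional binomial intervals and floors cover counting error only, since PCR copies were not told apart. limma 3.58.1 (R 4.3.3), tried on simulated data first, used a mean-variance trend, a pseudocount of 0.5 and a filter of 1 SPM in 2 libraries. Members, lists and motifs were chosen with earlier results of these data known. Named beside the members were list genes past the 4-fold rule in somatic cells, the gene of each list with the highest male somatic signal, not divided by length, and the nearest profiles; Soat1, Fdx1, Por, Nr5a1, Gata4, Rxfp2, Cyp19a1, the Hsd3b relatives, Jak3, Cdkn2d, the adrenal genes and those of the closing observations were chosen after their values were seen.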

Additional observations from a re-analysis of the deposited data

Results flagged for a closer look

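Of the genes named in the text, 5 differed in opposite directions under the same contrast, by at least 2-fold each way with at least 5 SPM in the higher library of each pair. No difference between the contrasts was tested, because each side holds 1 library against 1. Hsd17b2 had a log2 ratio of -5.79 for male over female somatic cells and 5.29 for male over female germ cells. It had -5.90 for male somatic over male germ cells and 5.18 for female somatic over female germ cells. Both ratios over female germ cells were taken against the floor. Pax8, a mesonephric duct gene, had -2.20 for male over female somatic cells and 4.35 for male over female germ cells, with -2.37 for male somatic over male germ cells and 4.18 for female somatic over female germ cells. Krt18, a keratin gene, had -2.18 in somatic cells and 1.81 in germ cells for male over female. Rspo1, a pregranulosa gene, had -3.55 in somatic cells and 1.50 in germ cells for male over female. Soat1, the cholesterol esterifying enzyme, had -1.91 in somatic cells and 2.82 in germ cells for male over female. None of the 8 steroidogenesis genes showed such a reversal, but not all could. Insl3, Lhcgr and Hsd17b3 were under 5 SPM in both germ libraries and could not meet the rule for male over female. Cyp11a1, Insl3 and Hsd17b3 were under 5 SPM in both female libraries and could not meet it for somatic over germ cells.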

How the results depend on the processing

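Single-gene ratios of the 8 genes kept their sign in all 120 values under other scalings or with repeated rows kept, and 106 stayed within the counting interval, with shifts of up to 0.32 on the log2 scale. At 2-fold the members called were 8 for male over female somatic cells (9.61% of all genes at 5 SPM or more) and 5 for female somatic over female germ cells (34.0%). At 20 SPM 1 member was left for male over female germ cells (10.03% of all genes at 20 SPM or more) and 1 for female somatic over female germ cells (20.97%). Leaving out Insl3, an alternative added after the data were seen, moved no count past 1.5 times. In the limma fit of somatic over germ cells, calls went to 0 of 18703 genes with no filter (4625 at unadjusted p under 0.05) and to 3049 with sex as a term. Leave-one-out counts ran from 64 without the male somatic library and 74 without the female somatic one to 1801 without the female germ and 3597 without the male germ library, where the lone library is assumed to vary like the others. Cyp11a1 turned to -0.72 without the male somatic library and had 6.18 without the female somatic one. In the limma fit of male over female, 19 calls became 0 with plain totals (625 at unadjusted p under 0.05), 0 with upper-quartile scaling (651), 0 without the cell type term (59), 126 at a pseudocount of 0.1, 93 with 1 SPM in 1 library and 9 with no filter; the cause was not tested. Leaving out a library leaves that fit no residual degree of freedom. No fit by replicate number was possible because the labels number no replicates, and the fit with sex as a term pairs libraries by sex alone. Other scalings put the median log2 ratio of all genes between -0.259 and 0.377 over the 4 library comparisons, against 0.01 to 0.09 as reported. The depth limits Insl3 and Hsd17b3 in the female somatic and both germ libraries and Lhcgr in the germ libraries, where 0 to 20 fragments lie behind a value. The same holds for Cyp11a1 in both female libraries and for Cyp17a1 and Hsd3b1 in the female germ library.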

Other observations

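Some steroid genes outside the 8 had their highest level in the male germ library. Srd5a1, a steroid 5alpha-reductase, had 28.9 SPM in male germ cells and 4.95 SPM in female germ cells, with 6.50 SPM in male somatic cells and 6.54 SPM in female somatic cells. Hsd17b4, a peroxisomal enzyme, had 370 SPM in male germ cells and 223 SPM in female germ cells, with 117 SPM in male and 111 SPM in female somatic cells. Cyp19a1, the aromatase, had 2.27 SPM in male germ cells and 0 in female germ cells. Nr5a2, a nuclear receptor close to Nr5a1, had 16.1 SPM in male germ cells and 1.86 SPM in female germ cells, with 0.748 SPM in male somatic cells and 3.95 SPM in female somatic cells. In another pattern, Cyb5a, the cytochrome b5 that aids the lyase step of Cyp17a1, was lowest in the female germ library and had 105 SPM in male germ cells and 9.99 SPM in female germ cells, with 111 SPM in male and 144 SPM in female somatic cells.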
